A study of Mus musculus with 6 samples.

Results

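The osteoclast and cell fusion genes are Acp5, Dcstamp, Ocstamp, Ctsk, Nfatc1, Tnfrsf11a and Itgb3, chosen by gene name. All 7 were found among the 41972 entries of the gene count table, and 6 of them were among the 12740 genes with enough counts to be tested. The 7th, Itgb3, had 1 to 5 counts in each library and is given as counts only. RNA was sequenced from macrophages grown out of the bone marrow of wild-type, 6-week-old male C57BL/6 mice. The marrow cells had been cultured for 6 days with 20% serum and 30% medium conditioned by L-929 cells, a mouse fibroblast line whose medium supplies the macrophage growth factor M-CSF. For 6 h they then received PBS or 20 µg per well of extracellular vesicles (EVs), membrane-bound particles shed by cells, here by the mould A. flavus. The EVs of the treated groups came from the strains named LD-F1 and LD-F1_b in the sample titles, whose relation the labels do not state. Each of the 3 groups had 2 biological replicates. The labels name no pooling of mice, and they do not say whether replicates came from different mice, so the p-values measure the spread between these libraries. RANKL, the cytokine that drives osteoclast formation, is not among the culture additions that the labels name.

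Osteoclasts are bone-resorbing cells that form when precursors of the macrophage lineage fuse. M-CSF keeps the precursors alive, and RANKL binds the receptor RANK (gene Tnfrsf11a), which signals through TRAF6, NF-kB, c-Fos and calcium to the transcription factor NFATc1. NFATc1 then switches on the fusion proteins DC-STAMP and OC-STAMP, the enzymes TRAP (gene Acp5) and cathepsin K (gene Ctsk), and the beta 3 integrin chain (gene Itgb3) of the receptor that holds the cell to bone. Macrophages of other tissues also fuse with DC-STAMP, into multinucleated giant cells.

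Dcstamp rose with both EV preparations, 1.62-fold with LD-F1 EVs and 1.44-fold with LD-F1_b EVs. Acp5 rose 3.13-fold with LD-F1 EVs, from a level near that of 1 CPM, and was not called with LD-F1_b EVs. Tnfrsf11a, Nfatc1, Ocstamp and Ctsk were not called in any of the 3 comparisons by edgeR's quasi-likelihood test, with the threshold at 0.05 for p adjusted by Benjamini-Hochberg over the whole table. With LD-F1 EVs 2 of the 6 tested members were higher and 0 lower. Of all genes tested 21.2% were called, 11.4% higher and 9.87% lower. With LD-F1_b EVs 1 of 6 was higher and 0 lower, where 11.0% of all genes were called, 6.44% higher and 4.54% lower. Between the EV preparations 0 of 6 were called by edgeR and 0 of 6 by DESeq2, 1 (Acp5) had an unadjusted p under 0.05 by edgeR, and 0.424% of all genes were called, 0.0157% higher and 0.408% lower. Without LD-F1 replicate 1 the count with LD-F1 EVs was 4 (2 higher and 2 lower), and without either PBS library it was 1. With LD-F1_b EVs it was 0 without either LD-F1_b library or PBS replicate 1, and 2 without either LD-F1 library. The median log2 fold change of the 6 members was -0.01 with LD-F1 EVs and 0.02 with LD-F1_b EVs, where the median of all genes was 0.01 in both. The comparisons share libraries, each EV group being set against the same 2 PBS libraries.

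Libraries held 13722215 to 15277997 counts. Levels are CPM, counts scaled to a common library total and by TMM factors, which balance the bulk of genes between libraries, and 3 counts in a library came to 0.189 to 0.225 CPM. The macrophage label was checked against 8 markers, of which 7 had a named entry. For the other, Lyz2, an entry described as Lyz2 had 37846 to 49597 counts in a library. Adgre1 had 5944 to 6463 counts in a library, Csf1r 16062 to 20579 and Cd68 7495 to 10460, while the entry named Itgam had 0 to 4 and an unnamed entry that overlaps it and is described as Itgam had 2056 to 2460. Mertk had 1 to 10 counts and Fcgr1 38 to 120. Cd14 had 6398 to 15235 and rose 2.34-fold with LD-F1 EVs and 1.84-fold with LD-F1_b EVs (adjusted p = 4.62e-06 and 0.00016 by edgeR). Gene length went with the log2 difference between the 2 LD-F1 libraries (Spearman's rho = -0.48 across 9661 genes with a mean of at least 5 CPM, against -0.20 in LD-F1_b and -0.0080 in PBS; genes are not independent replicates). Fewer cells of a type and less RNA per cell cannot be told apart in these bulk samples. A log2 fold change is given ± its standard error (SE) and a mean CPM ± its SD over 2 replicates.

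**Figure D1:**
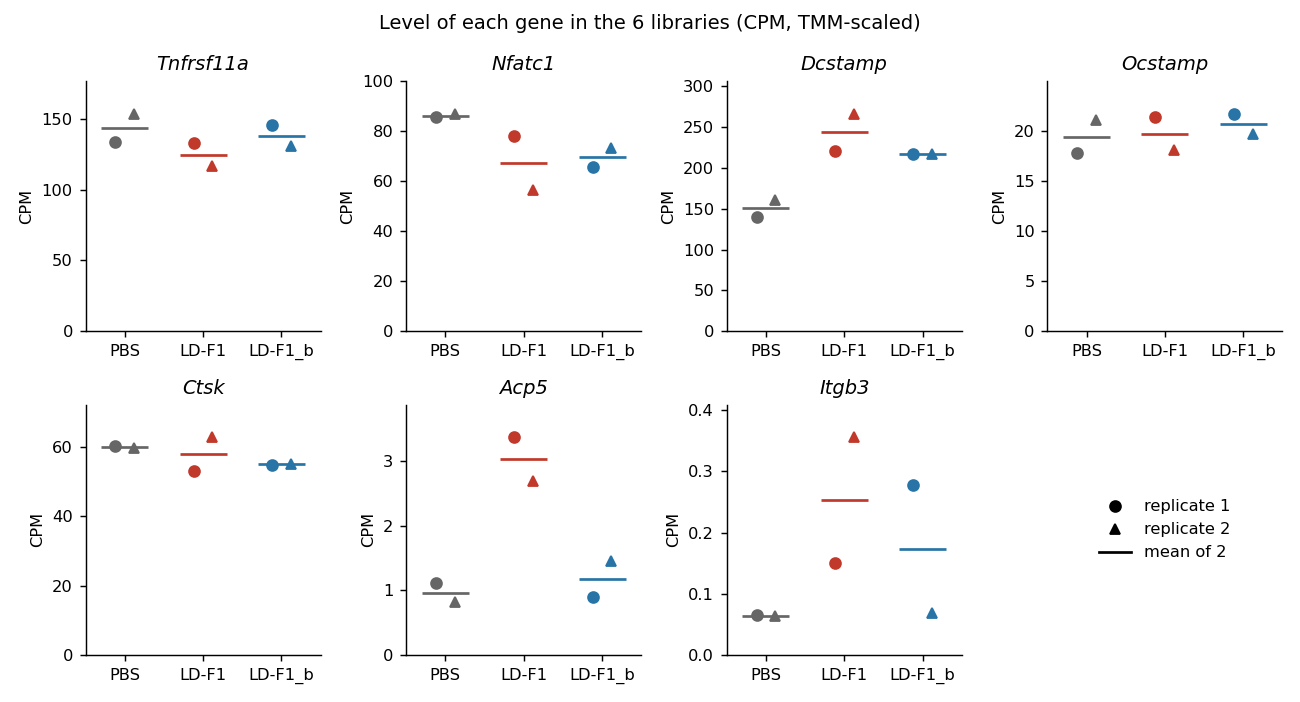
CPM of each gene in each of the 6 libraries on axes that start at 0 (circle, replicate 1; triangle, replicate 2; line, mean of the 2), by group. Both libraries of each EV group lie above both PBS libraries for Dcstamp, the LD-F1 libraries alone do so for Acp5, and the Itgb3 points stand for 1 to 5 counts.

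Compared per gene length, the 7 genes covered more than 3 orders of magnitude in the same macrophages, and their order was the same in the 3 groups. Dcstamp stood first, with a mean of 75.6 CPM per kilobase in PBS, 122 with LD-F1 EVs and 109 with LD-F1_b EVs, a level above that of 94.3% of tested genes in PBS. Ctsk followed at 39.7, 38.3 and 36.4 CPM per kilobase in PBS, LD-F1 and LD-F1_b. Tnfrsf11a had 24.0, 20.8 and 23.1, Nfatc1 12.1, 9.45 and 9.76, and Ocstamp 5.30, 5.39 and 5.65. Ocstamp was the member nearest the median of tested genes, which was 7.49 in PBS. Acp5 came far below, at 0.598, 1.88 and 0.730 CPM per kilobase, and Itgb3 last, at 0.0109, 0.0428 and 0.0294. Neighbours in this order did not overlap between their libraries in any group. The 2 resorption enzymes of the set thus stood apart, Ctsk lying above 87.7% of tested genes in PBS and Acp5 above 10.4%.

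**Figure D2:**
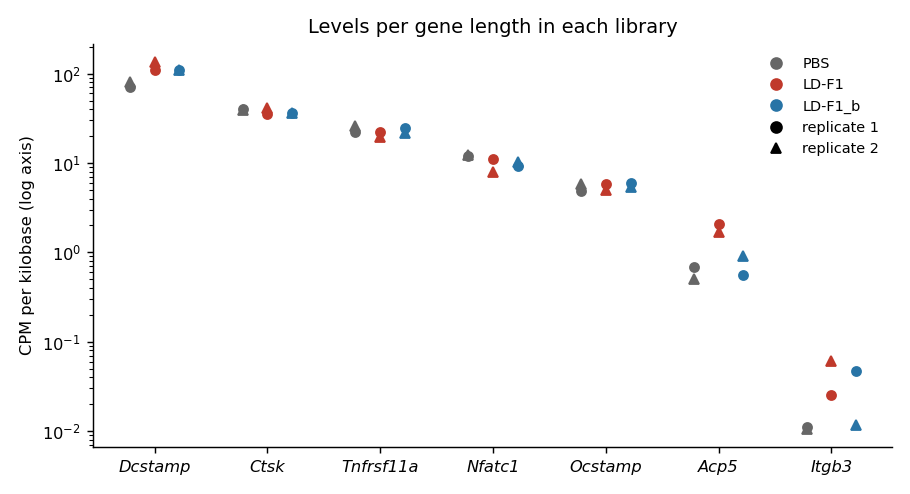
CPM per kilobase of gene length (log axis) of the 7 genes in each library, ordered by their mean, with color for the group and shape for the replicate. Dcstamp lies between 70.2 and 134, Acp5 between 0.508 and 2.09 and Itgb3 at or under 0.0603.

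Tnfrsf11a encodes RANK, the receptor through which RANKL commits a precursor to the osteoclast fate (entry on chromosome 1 at 112048184 to 112121863, plus strand, protein coding; this and the following positions are the table's own, which are those of the C57BL/6NJ strain assembly). Its level was 134 and 154 CPM in PBS, 133 and 117 with LD-F1 EVs and 146 and 131 with LD-F1_b EVs. Both LD-F1 libraries lay below both PBS libraries, by 1.16 CPM at the nearest pair, and the LD-F1_b libraries overlapped them. The log2 fold change was -0.21 ± 0.10 with LD-F1 EVs (95% interval -0.43 to 0.02, adjusted p = 0.194 by edgeR's quasi-likelihood test) and -0.06 ± 0.10 with LD-F1_b EVs (-0.28 to 0.17, adjusted p = 0.790), so a drop of more than 0.43 lies outside both intervals. Without LD-F1 replicate 1 the LD-F1 difference was -0.30 and was called (adjusted p = 0.0146). Of the molecules that act on this receptor, the ligand Tnfsf11 (RANKL) had 3 counts in 1 PBS library and 0 in the other 5, and the decoy receptor Tnfrsf11b (osteoprotegerin) had 1 count in 1 PBS library and 0 in the other 5. At these depths a count of 0 allows up to 0.225 CPM. Traf6, the adaptor that RANK recruits, had 45.7 and 46.7 CPM in PBS and 44.8 to 48.3 in the EV libraries, with adjusted p of 0.922 and 0.978 against PBS.

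Nfatc1 encodes the calcium-driven transcription factor that acts as the master regulator of the osteoclast programme (chromosome 18, 83618071 to 83726220, minus strand, protein coding). It had 85.5 and 87.1 CPM in the PBS libraries, 78.1 and 56.7 in the LD-F1 libraries and 65.7 and 73.4 in the LD-F1_b libraries. All 4 EV libraries lay below both PBS libraries, and the LD-F1 replicates differed from each other by 0.46 on the log2 scale, the second being the lower. The difference did not pass the test: -0.36 ± 0.13 with LD-F1 EVs (95% interval -0.65 to -0.06, adjusted p = 0.0810 by edgeR, unadjusted 0.0208) and -0.31 ± 0.13 with LD-F1_b EVs (-0.60 to -0.02, adjusted p = 0.174, unadjusted 0.0385). The call depended on the setting. With LD-F1 EVs it was made without LD-F1 replicate 1 (-0.61, adjusted p = 0.00012), without scaling beyond library totals (-0.46, 0.0305) and without a filter on low counts (-0.36, 0.0117), while without LD-F1 replicate 2 the value was -0.14 (0.302). With LD-F1_b EVs it was made when either LD-F1 library (adjusted p = 0.00564 and 0.00524) or both (0.00518) were left out of the fit. Nfatc1, at 7128 bases, is the longest of the 7 genes. In a fit that takes out the trend of each library with gene length, its difference was -0.27 with LD-F1 EVs (adjusted p = 0.0975) and -0.24 with LD-F1_b EVs (0.190).

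Dcstamp encodes DC-STAMP, a membrane protein with several transmembrane segments that precursors need on their surface to fuse (chromosome 15, 39648304 to 39664430, plus strand, protein coding). Its level was 140.0 and 161 CPM in PBS (2145 and 2562 counts), 220.5 and 267 with LD-F1 EVs (2942 and 3749 counts) and 217 in both libraries with LD-F1_b EVs (3117 and 3138 counts). Every EV library was above every PBS library, with a mean of 244 ± 32.6 CPM with LD-F1 EVs and 217 ± 0.0527 with LD-F1_b EVs against 151 ± 15.2 in PBS (SD, n = 2). The rise was 0.69 ± 0.11 on the log2 scale with LD-F1 EVs (adjusted p = 0.000604 by edgeR's quasi-likelihood test) and 0.52 ± 0.11 with LD-F1_b EVs (adjusted p = 0.00750). The first held under all 16 alternative settings (0.55 to 0.82, adjusted p at most 0.0214). The second held under 13 of 16 and was lost when LD-F1_b replicate 1 (adjusted p = 0.118), LD-F1_b replicate 2 (0.115) or PBS replicate 1 (0.167) was left out. The LD-F1_b libraries were lower than the LD-F1 libraries without overlap, but by -0.17 ± 0.11 (95% interval -0.40 to 0.06, adjusted p = 0.728). Without LD-F1 replicate 1 that difference was -0.30 and was called (adjusted p = 0.0240).

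Ocstamp encodes OC-STAMP, a related membrane protein that acts with DC-STAMP in fusion (chromosome 2, 175895729 to 175909130, minus strand, protein coding). It had 17.7 and 21.0 CPM in PBS, 21.4 and 18.1 with LD-F1 EVs and 21.7 and 19.6 with LD-F1_b EVs. The groups overlapped in every pairing. Its log2 fold change was 0.02 ± 0.15 with LD-F1 EVs (95% interval -0.31 to 0.35, adjusted p = 0.942 by edgeR) and 0.09 ± 0.15 with LD-F1_b EVs (-0.24 to 0.42, adjusted p = 0.771), and it was called under 0 of the 16 alternatives in each comparison. The upper bounds of both intervals lie below the point estimate of Dcstamp in the same comparison. The 95% interval of Dcstamp was 0.46 to 0.92 with LD-F1 EVs and 0.29 to 0.76 with LD-F1_b EVs. With LD-F1_b EVs it overlapped that of Ocstamp, and a difference between the 2 genes was not tested. The ratio of the pair within a library does not depend on how libraries are scaled. It can still carry the trend with gene length given above, since Dcstamp has 1993 bases and Ocstamp 3657. Per gene length there was 14.5 and 14.1 times as much Dcstamp as Ocstamp in the PBS libraries, 18.9 and 27.1 times with LD-F1 EVs and 18.3 and 20.3 times with LD-F1_b EVs. All 4 EV libraries had a higher ratio than both PBS libraries, and with 2 libraries against 2 the smallest p that an exact two-sided permutation test can give is 0.333.

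**Figure D3:**
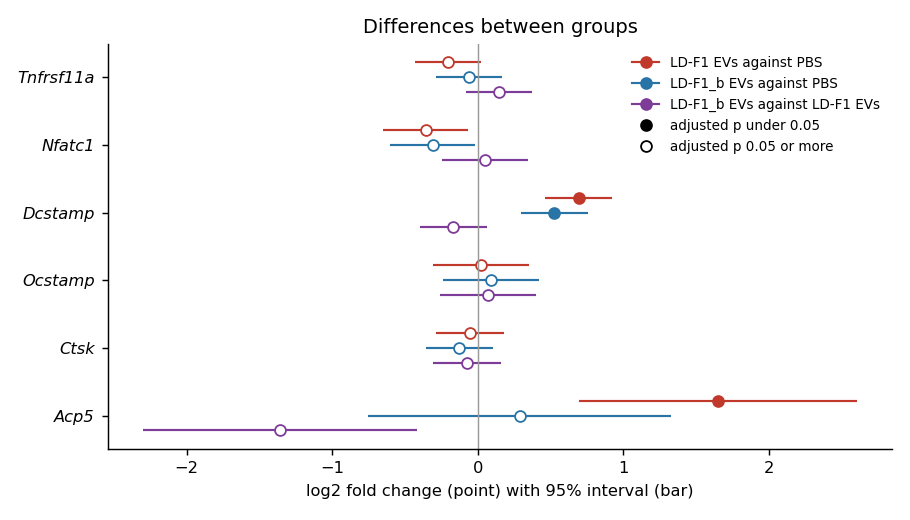
Log2 fold change of the 6 tested genes (points) with its 95% interval (bars) in the 3 comparisons, filled where the adjusted p by edgeR was under 0.05. The filled points are Dcstamp against PBS with each EV preparation (0.69 and 0.52) and Acp5 with LD-F1 EVs (1.65).

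Acp5 encodes TRAP, the tartrate-resistant acid phosphatase whose staining is used to recognise osteoclasts and which macrophages also make (chromosome 9, 20192467 to 20201429, minus strand, protein coding). Counts were 17 and 13 in the PBS libraries, 45 and 38 with LD-F1 EVs and 13 and 21 with LD-F1_b EVs, which came to 1.11 and 0.819, 3.37 and 2.70, and 0.904 and 1.45 CPM. The LD-F1 libraries stood above the other 4, and the LD-F1_b libraries overlapped the PBS libraries. Acp5 was higher by 1.65 ± 0.44 on the log2 scale with LD-F1 EVs (95% interval 0.69 to 2.60, adjusted p = 0.0188 by edgeR's quasi-likelihood test). With LD-F1_b EVs its log2 fold change was 0.29 ± 0.48 (-0.75 to 1.33, adjusted p = 0.768). The direct comparison of the EV preparations gave -1.36 ± 0.43 for LD-F1_b against LD-F1 (-2.30 to -0.42, unadjusted p = 0.00839, adjusted p = 0.328), so a different response to the preparations was not called. Summed over replicates, 83 counts stood against 30, a ratio of 3.15 after scaling with a 95% interval from 2.05 to 4.96 that covers counting error only. The call was lost without PBS replicate 1 (adjusted p = 0.0785) or PBS replicate 2 (0.153) and held under the other 14 alternatives. In the GENCODE M21 annotation of GRCm38, 137 of the 2030 exon bases of Acp5 are shared with 6530413G14Rik, a non-coding gene on the opposite strand that the count table does not name. Since the labels do not name the strand setting of the counting, reads of that gene cannot be told apart from reads of Acp5 over those bases.

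Ctsk encodes cathepsin K, the protease that digests bone collagen (chromosome 3, 99797787 to 99809616, plus strand, protein coding). Its level was 60.4 and 59.7 CPM in PBS, 53.1 and 62.7 with LD-F1 EVs and 54.9 and 55.1 with LD-F1_b EVs. The LD-F1 libraries lay on both sides of the PBS libraries, and the LD-F1_b libraries lay below them. The log2 fold change was -0.05 ± 0.11 with LD-F1 EVs (95% interval -0.29 to 0.18, adjusted p = 0.783 by edgeR) and -0.13 ± 0.11 with LD-F1_b EVs (-0.36 to 0.11, adjusted p = 0.520), and no alternative called it. Counting each member whose libraries did not overlap, 4 of the 6 tested stood apart from PBS with LD-F1 EVs (Dcstamp and Acp5 above, Nfatc1 and Tnfrsf11a below), where 59.5% of all genes tested did, 29.9% above and 29.6% below. With LD-F1_b EVs 3 of 6 did (Dcstamp above, Nfatc1 and Ctsk below), against 60.4% of all genes, 30.4% above and 30.0% below. Acp5 and Dcstamp, 2 of 6, were lower with LD-F1_b EVs than with LD-F1 EVs without overlap, against 34.0% of all genes, 17.0% in that direction. With 2 libraries a group, such a separation is common among all genes.

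The sequences before the start of Acp5 and Ctsk are shown because both genes are known targets of the transcription factor MITF and its relatives in osteoclasts, and only the first was called. RefSeq promoter sequences on build GRCm38.p6 covered 3 of the 7 members, with 3 starts of Acp5 and 1 each of Ctsk and Tnfrsf11a, and the 250 bases before each start were searched on both strands. Of the 3 Acp5 windows, the one at chr9:22130599-22130848 (minus strand) is printed. It lies within the transcribed span of longer Acp5 transcripts in GENCODE M21, with 10 of its 250 bases in annotated exons, and the 30 bases after this start are found in 2 GENCODE transcripts of Acp5 and those after the other 2 starts in 0. By the same check the bases after the Ctsk start are found in 0 GENCODE transcripts of Ctsk, and those after the Tnfrsf11a start in 1 of its own. The Ctsk window is chr3:95498960-95499209 (plus strand), with 0 bases in annotated transcripts. Sequences are written 5′ to 3′ on the strand of the gene, and capitals mark a match to the M-box TCATGTGA, the PU.1 motif GAGGAAG or the AP-1 motif TGANTCA, where N is any base.
Acp5: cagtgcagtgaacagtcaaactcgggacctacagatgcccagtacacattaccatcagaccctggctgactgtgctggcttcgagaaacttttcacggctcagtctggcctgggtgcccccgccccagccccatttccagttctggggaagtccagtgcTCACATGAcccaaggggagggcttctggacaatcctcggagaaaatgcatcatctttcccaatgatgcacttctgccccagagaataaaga
Ctsk: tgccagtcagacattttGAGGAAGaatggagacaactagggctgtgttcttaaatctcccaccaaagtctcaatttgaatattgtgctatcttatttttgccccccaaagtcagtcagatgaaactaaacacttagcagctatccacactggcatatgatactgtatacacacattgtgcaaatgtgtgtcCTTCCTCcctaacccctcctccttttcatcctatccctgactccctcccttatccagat
The capitals in the Acp5 window are TCACATGA, the M-box on the opposite strand, whose nearer end lies 84 bases before the start. An M-box was present in 0.846% of 32851 mouse promoter windows of the same length (278 windows). This share is for 1 motif in 1 window. Several motifs were searched in 5 windows, so it does not give how often some match would turn up. It was not found in the other 2 Acp5 windows, the Ctsk window or the Tnfrsf11a window. Only its full 8 letters were searched, so a window without a match may still hold a looser site. The capitals in the Ctsk window are 2 matches to GAGGAAG, 1 on each strand and the nearer 53 bases before the start, a motif present in 10.6% of windows. AP-1 letters (6.75% of windows) and the E-box CACGTG (6.02%) were found in 0 of the 5 windows. Short motifs of 2 factors downstream of RANK were common among all windows. The NFAT core GGAAA, present in 55.6% of windows, was found in all 3 Acp5 windows and not in those of Ctsk and Tnfrsf11a. The NF-kB-like motif, GGG and CC with any 5 bases between them and present in 45.8%, was found in the window of Tnfrsf11a and in 2 of the 3 Acp5 windows, the printed one included. Capitals do not mark these 2 motifs. These are matches of letters, and binding was not measured. Mitf itself, named here after its values were seen, rose with both preparations, from 51.6 and 52.9 CPM in PBS. Its log2 fold change was 0.79 ± 0.11 with LD-F1 EVs (adjusted p = 0.000281 by edgeR) and 0.66 ± 0.11 with LD-F1_b EVs (0.00226). Acp5 was not called with LD-F1_b EVs (0.29 ± 0.48, adjusted p = 0.768 by edgeR), and Ctsk was called with neither preparation. A part of Mitf in the change of Acp5 was not tested.

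Itgb3 encodes the beta 3 integrin chain that pairs with the alpha v chain in osteoclasts and with the alpha IIb chain in platelets (chromosome 11, 111108808 to 111169494, plus strand, protein coding). It had 1 count in each PBS library, 2 and 5 in the LD-F1 libraries and 4 and 1 in the LD-F1_b libraries. No test was made. The summed counts of 2, 7 and 5 gave a ratio to PBS of 3.98 with LD-F1 EVs (95% interval 0.759 to 39.3) and 2.70 with LD-F1_b EVs (0.443 to 28.4), so no difference was detectable at this depth. Its partner Itgav was abundant, at 151 and 154 CPM in PBS, 143 and 134 with LD-F1 EVs and 126 and 113 with LD-F1_b EVs. Itgav fell by 0.35 on the log2 scale with LD-F1_b EVs (SE 0.09, adjusted p = 0.0267 by edgeR), a call lost on leaving out either LD-F1_b library (0.104 and 0.273) or either PBS library (0.207 and 0.253) and in the fit with gene length taken out (0.0703). With LD-F1 EVs its value was -0.14 ± 0.09 (adjusted p = 0.311). Itga2b, the alpha chain of the platelet receptor, had 1 to 6 counts in a library.

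The genes around the 7 members were taken from 5 lists of the pathway with 133 genes. The lists were chosen with earlier results of these data known, so their counts beside all genes are descriptions only. M-CSF (Csf1), the survival factor of osteoclast precursors, was among the largest changes. It had 9.79 and 9.89 CPM in PBS, 41.1 and 40.6 with LD-F1 EVs and 29.9 and 28.5 with LD-F1_b EVs. The EV libraries stood far above PBS, with log2 fold changes of 2.05 ± 0.13 (adjusted p = 5.66e-07 by edgeR) and 1.57 ± 0.13 (1.32e-05). Its receptor Csf1r had 1336 and 1296 CPM in PBS and 1142 to 1315 in the EV libraries. The log2 fold change of Csf1r was -0.16 ± 0.08 with LD-F1 EVs (adjusted p = 0.185), called without LD-F1 replicate 1 (0.0124) or with library totals only (0.0314), and -0.03 ± 0.08 with LD-F1_b EVs (0.872). Among receptors and the ITAM signalling that costimulates RANK, 2 of 13 tested genes were higher with both preparations, where 11.4% of all genes were higher with LD-F1 EVs and 6.44% with LD-F1_b EVs. These were Csf1 and the adaptor Lcp2 (0.90 ± 0.08 with LD-F1 EVs, adjusted p = 1.2e-05). Plcg2, the phospholipase that links ITAM receptors to calcium, was the 1 called lower with all libraries (-0.27 ± 0.09, adjusted p = 0.0388), a call made with LD-F1 EVs and lost without either PBS library (0.238 and 0.245) or either LD-F1_b library (0.0979 and 0.0982). Without LD-F1 replicate 1 the lower calls of the list with LD-F1 EVs were 2, without LD-F1 replicate 2 they were 3, and without any 1 of the other 4 libraries 0. In this list 4 genes were higher with LD-F1 EVs without LD-F1 replicate 2, and 4 with LD-F1_b EVs without either LD-F1 library.

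Among 29 tested genes of RANK signalling and its transcription factors, 9 rose and 3 fell with LD-F1 EVs, while 8 rose and 2 fell with LD-F1_b EVs. Of all genes tested, 11.4% rose and 9.87% fell with LD-F1 EVs, against 6.44% and 4.54% with LD-F1_b EVs. Myc, which RANKL also induces in precursors, rose by 3.24 ± 0.15 and 2.62 ± 0.15 on the log2 scale with LD-F1 and LD-F1_b EVs (adjusted p = 9.74e-08 and 1.47e-06). Jdp2, an AP-1 family member required for osteoclast formation, rose by 1.51 ± 0.09 and 1.05 ± 0.09, and the NF-kB subunits Nfkb2 (1.10 and 0.72) and Relb (0.98 and 0.89) rose with both. Nfatc2, a relative of Nfatc1 that can start its transcription, had 89.6 and 96.7 CPM in PBS, 48.3 and 39.0 with LD-F1 EVs and 56.6 and 63.1 with LD-F1_b EVs. It fell by 1.09 on the log2 scale with LD-F1 EVs (SE 0.12, adjusted p = 4.66e-05) and by 0.64 with LD-F1_b EVs (SE 0.12, 0.00437). Tfeb, a relative of MITF that governs lysosomal genes, was also lower with both (-0.99 and -0.83). The higher calls of this list with LD-F1 EVs moved without LD-F1 replicate 1. In a separate fit of all libraries with the length trend taken out, 14 genes of this list were higher with LD-F1 EVs. With LD-F1_b EVs 4 were lower without either LD-F1 library, 0 without LD-F1_b replicate 1 and 1 without LD-F1_b replicate 2 or PBS replicate 2, the fall of Nfatc2 being lost without LD-F1_b replicate 1 (0.117), LD-F1_b replicate 2 (0.0538) or PBS replicate 2 (0.0715), that of Tfeb without LD-F1_b replicate 1 (0.0788) and the rise of Relb without LD-F1_b replicate 2 (0.0627).

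Of 15 tested repressors of the osteoclast programme, 4 rose and 3 fell with LD-F1 EVs (11.4% and 9.87% of all genes), while 3 rose and 3 fell with LD-F1_b EVs (6.44% and 4.54%). Rcan1, an inhibitor of the phosphatase calcineurin that activates NFATc1, rose by 1.70 ± 0.12 and 1.27 ± 0.12, and Tnfaip3, the NF-kB inhibitor A20, by 1.96 ± 0.15 and 1.25 ± 0.15 (adjusted p by edgeR of 2.67e-06 and 0.000245 for Tnfaip3). Inpp5d (SHIP1, a lipid phosphatase) was lower (-0.52 and -0.42), as was Dab2ip (-0.99 and -0.57), while the tyrosine phosphatase Ptpn6 (SHP-1) was higher (0.31 and 0.45). Leaving out either LD-F1_b or either PBS library left 2 of the 4 higher calls with LD-F1 EVs, that of Ptpn6 being lost each time (adjusted p 0.0557 to 0.261), and leaving out LD-F1 replicate 1 gave 5 lower calls. With LD-F1_b EVs the call of Ptpn6 was lost without LD-F1_b replicate 1 (0.083), LD-F1_b replicate 2 (0.0752) or PBS replicate 1 (0.135). The same 4 omissions left 0 or 1 lower calls with LD-F1_b EVs. Those of Inpp5d and Dab2ip were lost in each (adjusted p 0.112 to 0.211).

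Of 22 other tested genes of cell fusion, 10 rose and 1 fell with LD-F1 EVs (11.4% and 9.87% of all genes), while 7 rose and 0 fell with LD-F1_b EVs (6.44% and 4.54%). The median log2 fold change of this list was 0.10 and 0.14, against 0.01 for all genes. Mmp9, a gelatinase made by macrophages and osteoclasts, had 72.8 and 80.8 CPM in PBS, 302 and 271 with LD-F1 EVs and 222 and 232 with LD-F1_b EVs. It rose by 1.90 ± 0.10 and 1.56 ± 0.09 on the log2 scale (adjusted p = 1.83e-07 and 1.47e-06 by edgeR). The chemokine Ccl2, which promotes fusion, rose by 1.297 and 1.03, the surface protein Cd47, which binds SIRPα on a partner cell, by 0.86 and 0.62, the phosphatidylserine-binding Anxa5 by 0.63 and 0.42, the hyaluronan receptor Cd44 by 0.59 and 0.54 and the filopodial motor Myo10 by 0.60 and 0.54. Atp6v0d2, a proton pump subunit with a part in fusion and a marker of mature osteoclasts, had 22.0 and 22.9 CPM in PBS, 16.5 and 17.9 with LD-F1 EVs and 17.9 and 18.0 with LD-F1_b EVs. All 4 EV libraries lay below PBS, at -0.38 ± 0.14 (adjusted p = 0.0662) and -0.32 ± 0.13 (0.159), neither called. Without LD-F1 replicate 1 the lower calls of the list with LD-F1 EVs went from 1 to 7, without LD-F1 replicate 2 to 2, and without either PBS library to 0. With LD-F1_b EVs 4, 4, 3 and 4 of the 7 higher calls were made without LD-F1_b replicate 1, LD-F1_b replicate 2, PBS replicate 1 and PBS replicate 2, and 2 lower calls without either LD-F1 library. With LD-F1_b EVs the rises of Anxa5 and Myo10 were lost in each of these 4 omissions (adjusted p 0.0715 to 0.197) and that of Cd44 without PBS replicate 1 (0.0647).

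Of 33 tested genes of attachment and bone resorption, 5 rose and 5 fell with LD-F1 EVs, while 4 rose and 4 fell with LD-F1_b EVs, with medians of -0.05 and -0.01. Of all genes, 11.4% rose and 9.87% fell with LD-F1 EVs, against 6.44% and 4.54% with LD-F1_b EVs. The elastase Mmp12 rose 2.83-fold and 2.78-fold. The fibronectin receptor chain Itga5 rose by 0.84 ± 0.09 and 0.64 ± 0.09 on the log2 scale, and osteopontin (Spp1), a ligand of the alpha v beta 3 integrin, by 0.59 ± 0.09 and 0.51 ± 0.09. The tyrosine kinase Src, needed for the ruffled border, had 5.02 and 2.39 CPM in PBS and 8.77 and 9.81 with LD-F1 EVs, and was higher by 1.33 ± 0.30 (adjusted p = 0.00757 by edgeR), a call lost without PBS replicate 2 (0.0849). With LD-F1_b EVs the value of Src was 0.82 ± 0.31 (0.115). Src was called there without a filter on low counts (0.82, adjusted p = 0.0227 by edgeR). The call was also made without LD-F1 replicate 2 (0.82) or PBS replicate 1 (1.45). The anion exchanger Slc4a2, which balances acid secretion, was lower (-0.76 ± 0.09 and -0.64 ± 0.09), as was the sugar phosphate exchanger Slc37a2 (-0.995 ± 0.0842 and -0.81 ± 0.08). With LD-F1 EVs the lower calls were 8 without LD-F1 replicate 1 and 2 without either LD-F1_b or either PBS library, and the higher calls were 3 without PBS replicate 2. With LD-F1_b EVs the lower calls were 10 without either LD-F1 library and 2 without any 1 of the other 4, and the higher calls were 7 without LD-F1 replicate 2 and 2 without either LD-F1_b library or PBS replicate 2. The LD-F1_b call of Spp1 was lost without any 1 of the LD-F1_b and PBS libraries (0.0587 to 0.118).

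**Figure D4:**
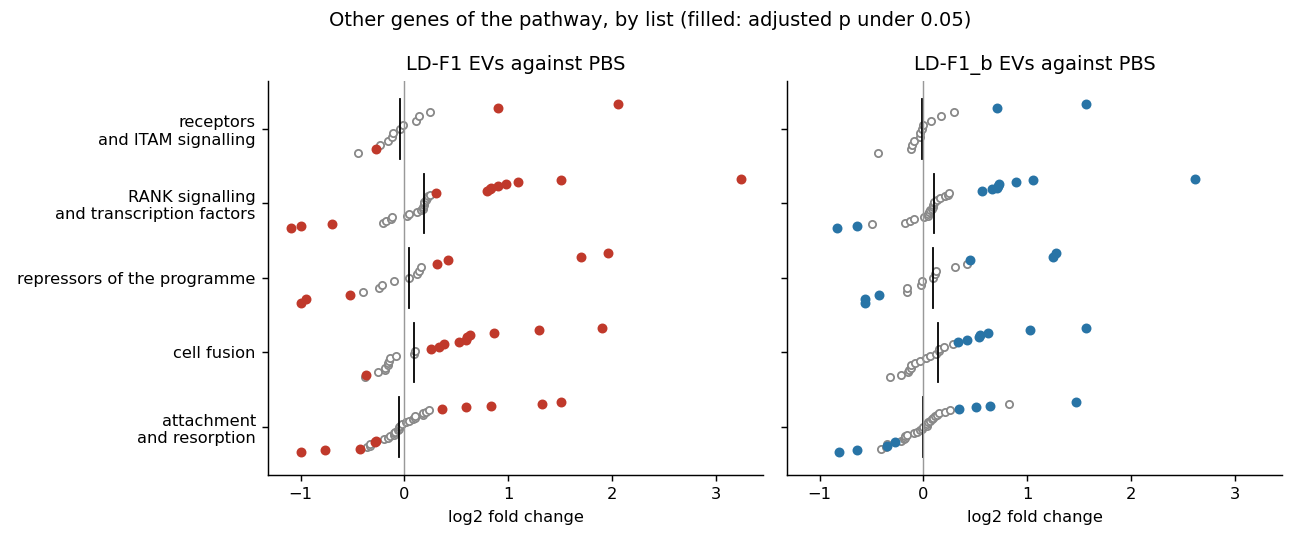
Log2 fold change of every tested gene of the 5 pathway lists against PBS, with LD-F1 EVs on the left and LD-F1_b EVs on the right (filled points, adjusted p under 0.05 by edgeR; vertical bar, median of the list). In each panel the point farthest to the right is Myc in the list of RANK signalling (3.24 and 2.62), and the medians of the lists lie between -0.05 and 0.19.

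Between the EV preparations 0 of 112 tested genes of the 5 lists were called by edgeR, 21 had an unadjusted p under 0.05 and DESeq2 called 4. Of these genes edgeR called 21 without LD-F1 replicate 1 and 14 without LD-F1 replicate 2, and without any 1 of the other 4 libraries 0. The nearest with all libraries were Jdp2 and Tnfaip3. For Jdp2 the difference of LD-F1_b against LD-F1 was -0.45 ± 0.09 (adjusted p = 0.0549), called by DESeq2 (0.0141), with gene length offsets (0.0157) and without LD-F1 replicate 1 (0.00101) or LD-F1 replicate 2 (0.0111). For Tnfaip3 it was -0.71 ± 0.15 (adjusted p = 0.0549), called by DESeq2 (0.00423), with the replicate block (-0.70, 0.0189), with gene length offsets (0.00726) and without LD-F1 replicate 1 (0.0161) or LD-F1 replicate 2 (0.000242).

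Markers of other cells were read beside these results. Of 6 markers of mature osteoclasts, Calcr and Car2 had 0 counts in every library, Oscar 0 to 7 and Siglec15 71 to 129. Their summed level was 103 to 112 CPM in PBS, 295 to 325 with LD-F1 EVs and 245 to 257 with LD-F1_b EVs, of which Mmp9, also a macrophage gene, made up most. This sum, like Dcstamp, was above PBS in all 4 EV libraries. Of its other genes, Siglec15 had a mean of 8.15 CPM in PBS, 5.95 with LD-F1 EVs and 6.03 with LD-F1_b EVs (adjusted p = 0.191 and 0.269 by edgeR), and Atp6v0d2, given above, also lay below PBS. The 7 megakaryocyte and platelet markers summed to 8.50 to 9.79, 10.7 to 13.2 and 9.53 to 10.3 CPM, with Gp9 at 0 in every library. The 6 dendritic cell markers summed to 1.83 to 2.74, 8.47 to 8.75 and 4.63 to 6.54 CPM, with Siglech and Ccr7 at 0. Most of that sum was Xcr1, which rose with both preparations, from a mean of 1.22 CPM in PBS to 8.06 and 4.44 (adjusted p = 2.9e-05 and 0.00153), while Zbtb46 had 0.966, 0.515 and 0.798 CPM and was not called. The 8 neutrophil markers summed to 0.457 to 0.504, 1.21 to 1.499 and 0.76 to 0.834 CPM, with 4 at 0. The 7 stroma and osteoblast markers with an entry summed to 33.0 to 36.2, 33.6 to 37.6 and 29.0 to 31.4 CPM. Most of that sum was Runx2 (390 to 533 counts in a library), while Col1a1 and Col1a2 had 0 to 1. The lists of T and NK cells, B cells, endothelial cells and mast cells reached at most 2.47 CPM in a library. The part of these cells in the changes of Dcstamp and Acp5 was not tested.

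The genes whose log2 CPM was most like that of a member across the 6 libraries were taken as the 3 with the highest Pearson's r among 9066 named genes with a mean of at least 5 CPM (9067 for Acp5), as a description of libraries that share groups and depth. For Dcstamp they were Pa2g4, Mrps18a and 4933434E20Rik (r = 0.997, 0.997 and 0.995). For Nfatc1 they were Mphosph9, Mcm9 and Dip2c (0.998, 0.998 and 0.993), and for Acp5 Herpud2, Gpn2 and Ccnl2 (0.989, 0.984 and 0.984). Tnfrsf11a was nearest to Sh3pxd2a (0.987), a podosome scaffold that is also in the cell fusion list, Ctsk to Cnpy4 (0.988) and Ocstamp to Zdhhc21 (0.984). The 3 genes nearest to Dcstamp had log2 fold changes of 0.18, 0.24 and 0.31 with LD-F1 EVs, against 0.69 for Dcstamp.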

How the data were processed

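The deposited table gives raw, whole-number read counts per gene for 6 libraries, not normalised. Poly(A) RNA was sequenced, per the labels' protocols. Per the submitters' processing notes, the authors' tools included featureCounts (1.5.0-p3), StringTie (1.3.3b), HISAT2 (2.0.5) and fastp. Those notes name GRCm39, while the table's identifiers and positions are those of C57BL/6NJ. The sources used here do not give the strand setting or the handling of reads with several matches. Of the per-sample columns, 0 stayed unmatched.

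Counts were tested with edgeR 4.0.16 in R 4.3.3: filterByExpr, TMM factors, 1 quasi-likelihood fit of all 6 libraries with robust estimation (3 residual degrees of freedom), and Benjamini-Hochberg adjustment over 12740 genes. DESeq2 1.42.0, other scalings, filters and samples gave 16 alternatives per comparison. The procedure was tested on simulated data. The simulated counts had the same dispersion, the spread beyond counting error, for every gene and no trend with gene length. That test therefore does not cover the length trend of these libraries. All 7 members are named, then up to 6 called genes per list with the largest change against PBS, direct partners of members, and the 3 genes most like each member. Cell type markers are named as well. Mitf was named outside this rule, after its values were seen. The members and lists were chosen with earlier results of these data known. Floors and intervals of count ratios cover counting error only (no molecular identifiers). Some members of the lists are counted but not reported by name here.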

Additional observations from a re-analysis of the deposited data

How the results depend on the processing

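No direction of a member called in the results reversed under any of the 16 alternatives. With 1 library left out, genes called of all tested ranged from 1203 to 4484 for LD-F1 EVs against PBS (2707 with all libraries; 1203 without PBS replicate 1, 1279 without PBS replicate 2 and 4484 without LD-F1 replicate 1) and members called from 1 to 4 (2 with all). For LD-F1_b EVs against PBS they ranged from 378 to 3122 (1398 with all) and members from 0 to 2 (1 with all), and fitting only the 2 groups compared gave 3117 genes and 2 members. Between the EV preparations they ranged from 0 (without either LD-F1_b library) to 1111 (without LD-F1 replicate 1; 337 without LD-F1 replicate 2), with 0 to 1 members, against 54 genes and 0 members with all. There, no filter on low counts gave 185, DESeq2 110, only the 2 groups 30, gene length offsets 115 and the replicate block with gene length offsets 117. The cause was not tested, except that an omission leaves an arm with 1 library, assumed to vary like the other groups.

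Scaling by library totals alone moved the median of all genes to -0.10 with LD-F1 EVs and -0.07 with LD-F1_b EVs, and the share of called genes that were higher from 53.5% to 33.6% and from 58.7% to 41.7%. Counts of the pathway lists under the alternatives were added after seeing the data. With library totals only, lower calls with LD-F1 EVs went from 1 to 6 in the cell fusion list and from 1 to 3 in receptors. They went from 3 to 5 in RANK signalling and in the repressors. With LD-F1_b EVs they went from 4 to 7 in attachment and resorption. Higher calls of the repressors with LD-F1 EVs went from 4 to 2, also with only the 2 groups compared. In that 2-group fit, lower calls in attachment and resorption went from 5 to 2 with LD-F1 EVs and from 4 to 10 with LD-F1_b EVs. With LD-F1_b EVs it also moved lower calls in RANK signalling from 2 to 4 and higher calls in receptors from 2 to 4. Same-numbered libraries did not deviate together (r of deviations -0.02, -0.04 and 0.13 over 9661 genes), so the numbers were not taken as pairs. A fit with the replicate number as a block called 2706, 1357 and 52 genes and changed no member's call, while it called Tnfaip3 between the EV preparations (-0.70, adjusted p = 0.0189). Depth limits Acp5 (13 to 45 counts) and Itgb3 (1 to 5).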
